A study of Mus musculus with 8 samples.

Results

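The proteasome subunit genes of B16-F10 melanoma cells were taken from the deposited expression table by symbol. The rows named Psma, Psmb, Psmc, Psmd or Psme followed by a number were kept, pseudogene names were dropped, and Psmb8 and Psmb9 were left out. This gave 41 genes of the 46477 rows. Of these, 36 had a mean of at least 1 FPKM (a fragment count divided by gene length and library size, and so a level per length) and are described here, among 6917 rows of the table that reached that mean. The 36 were 15 genes of the core particle, named Psma and Psmb, and 21 genes of the regulators, named Psmc, Psmd and Psme.

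The proteasome is the barrel-shaped protease that degrades ubiquitin-tagged proteins in the cytosol and nucleus. Its core particle stacks outer rings of alpha subunits (Psma genes), which gate the entrance, on inner rings of beta subunits (Psmb genes), some of which carry the cutting sites. The regulatory particle that caps the barrel has a base of ATPases (Psmc genes) and large non-ATPase subunits, and a lid that removes ubiquitin (both Psmd genes), while the Psme genes encode other caps known as activators. Psmd5, Psmd9 and Psmd10 carry subunit names but encode chaperones that help to assemble the base. When proteasome activity falls, subunit genes are known to be induced together by the transcription factor Nfe2l1, which binds antioxidant response elements in their promoters.

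B16-F10 is a mouse melanoma line, and all 8 libraries hold RNA of these cells after 24 hours on matrix that smooth muscle cells had laid down. The smooth muscle cells, and not the melanoma cells, had received siRNA for 72 hours and then 1 of 2 media for 72 hours before they were lysed and the matrix was washed. The media are abbreviated TCM and SFM (the series title speaks of tumor conditioned media), and the siRNAs were siKLF4-siFN, siFN, siKLF4 and siNT. The 8 conditions were thus TCM siKLF4-siFN, TCM siFN, TCM siKLF4, TCM siNT, SFM siKLF4-siFN, SFM siFN, SFM siKLF4 and SFM siNT, with 1 library each, so that every test below takes its error from the other conditions and not from repeats of a condition. Because the silenced cells were lysed before the melanoma cells were plated, levels of the targeted genes in these libraries do not check the silencing.

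Before the members are described, 3 facts of the libraries bear on all of them. Approximate depth, read from the steps between low FPKM values, was 11600000 to 23100000 reads per library. The steps were blurred: 44.3% to 48.6% of low values came within 0.05 of a whole read. By chance 10% would do so at a depth fixed in advance, but each depth was picked to give the highest share. The depth is thus an estimate only. SFM siKLF4-siFN held the highest or the lowest of the 8 values for 58.1% of the 6917 genes, the largest such share, while TCM siKLF4-siFN and TCM siFN were the closest of the 28 pairs of libraries. Of 7 melanocyte markers 6 reached a mean of 1 FPKM (summed level 351 to 554 FPKM), against 1 of 7 smooth muscle markers (summed level 1.27 to 2.24 FPKM, with Acta2 at 0 in every library), 0 of 6 fibroblast markers (0.0761 to 0.149 FPKM), 1 of 5 endothelial markers and 1 of 6 leukocyte markers. The defining smooth muscle transcript Acta2 was therefore not seen in the RNA that was sequenced.

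Levels of genes of the same class differed widely. The low ends have limits: Psmb10 is the inducible counterpart of Psmb7, and the level of Psma3 is uncertain because of shared sequence (below). Averaged over the 8 libraries, the 7 alpha ring genes ran between 1.65 FPKM (Psma3) and 18.2 FPKM (Psma7), and the 8 beta ring genes between 1.14 FPKM (Psmb10) and 53.4 FPKM (Psmb4), a 46.9-fold range. The 6 base ATPases ran from 4.09 FPKM (Psmc6) to 17.6 FPKM (Psmc5), a 4.31-fold range. Among the non-ATPase genes of base and lid the highest was Psmd8, a lid subunit, at 90.4 FPKM, and the lid gene at the low end was Psmd11 at 2.35 FPKM. The chaperone Psmd5 had the lowest mean of the Psmd genes described, 1.71 FPKM, and the activators ran from 1.35 FPKM (Psme4) to 18.7 FPKM (Psme3).

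Across the 8 libraries most members varied little. Their SD on the log2(FPKM + 1) scale had a median of 0.17, against 0.20 over all 6917 genes, and ran from 0.08 for Psmd6 to 0.43 for Psmc6. Psma7, the alpha subunit with the highest level, had 19.4 FPKM in TCM siKLF4-siFN, 18.7 in TCM siFN, 19.0 in TCM siKLF4, 19.8 in TCM siNT, 17.1 in SFM siKLF4-siFN, 18.1 in SFM siFN, 16.6 in SFM siKLF4 and 16.6 in SFM siNT. All 4 TCM values of Psma7 lay above all 4 SFM values, but by little, and no test of the medium called it. Psmb4, a non-catalytic beta subunit, had 51.2, 53.2, 58.0 and 55.7 FPKM in the TCM libraries in the same order of siRNAs, and 60.4, 52.3, 46.3 and 49.9 FPKM in the SFM libraries; the ranges of the media overlapped.

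**Figure D1:**
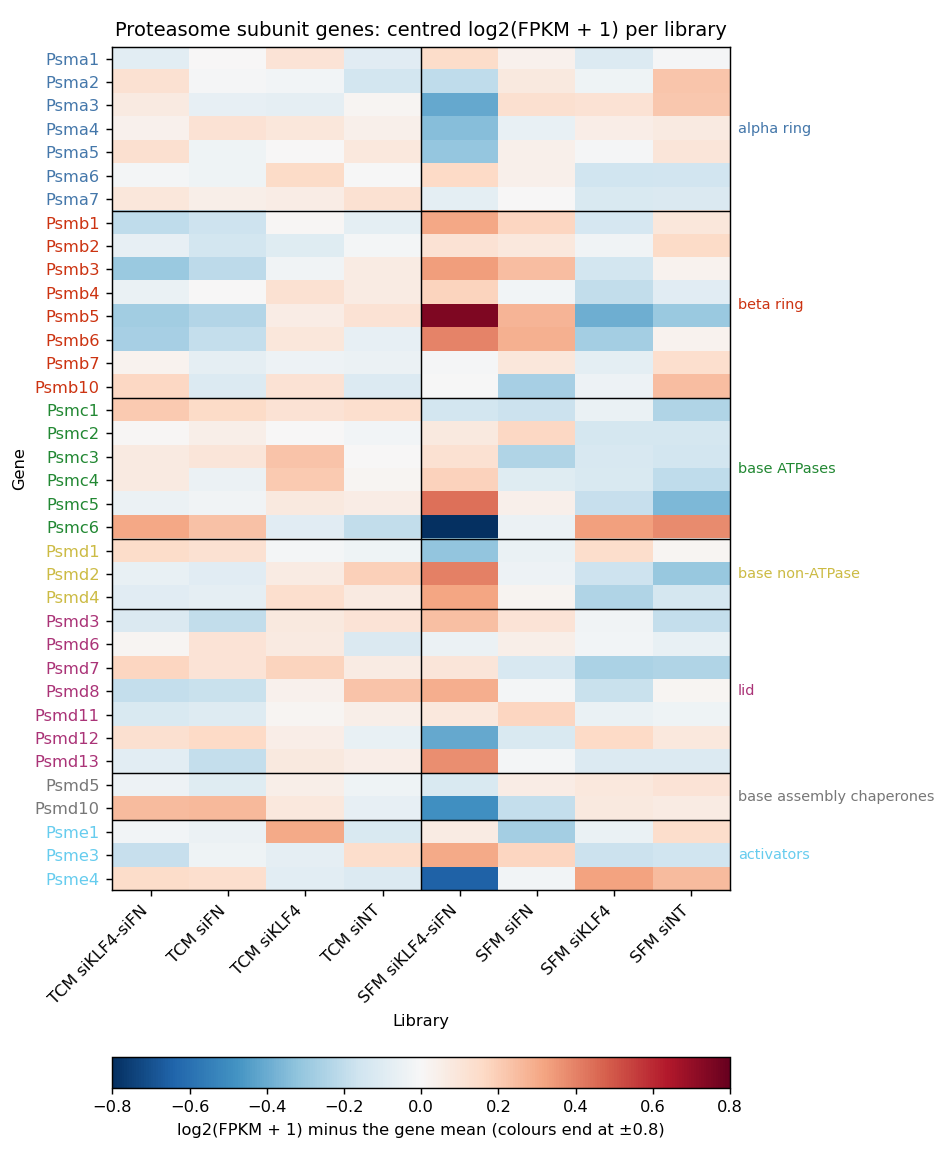
Each row is 1 of the 36 proteasome genes and each column 1 of the 8 libraries; colour gives log2(FPKM + 1) minus the gene's mean over the libraries, with colours ending at 0.8 either way. The column of SFM siKLF4-siFN holds the strongest colours in both directions, with Psmb5 highest and Psmc6 and Psme4 lowest there.

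The library that stood apart over all genes also did so for the proteasome genes. SFM siKLF4-siFN held an extreme value for 24 of the 36 members, or 66.7%, against 58.1% of all tested genes; it was the highest library for 14 members and the lowest for 10. The next in order were SFM siNT with 12 members (33.3%, against 25.4% of all genes), SFM siKLF4 with 10 (27.8%, against 20.1%) and TCM siKLF4-siFN with 8 (22.2%, against 17.7%). SFM siFN, the next library over all genes with 29.1%, was extreme for 5 members (13.9%). TCM siNT was extreme for 2 members (5.56%, against 11.9%). TCM siKLF4-siFN and TCM siFN were also the closest pair over the members alone, with a mean absolute log2 difference of 0.0696, against 0.104 over all genes.

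The question put by the design is whether siFN or siKLF4 given to smooth muscle cells, in either medium, changes the melanoma cells that later grow on the matrix. The first comparison is the media by siFN interaction, which is the difference with and without siFN on TCM matrix minus the same difference on SFM matrix; each of its 4 arms holds the libraries with and without siKLF4. In limma, with Benjamini-Hochberg adjustment over the 6917 genes and a threshold of 0.05, 496 genes or 7.17% passed (3.83% higher and 3.34% lower), and 1 of the 36 members did, Psmb5, so that the share of members called was below the background. Of the members 15 had an interaction above 0 and 21 below, with a median of -0.16, against a median of -0.06 and 54.4% below 0 over all genes tested. At an unadjusted p under 0.05 there were 13 members, and 2323 of all genes.

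Psmb5, the beta subunit with the chymotrypsin-like cutting site and the main target of the drug bortezomib, carried the clearest difference. It had 20.3 FPKM in TCM siKLF4-siFN, 21.1 in TCM siFN, 26.0 in TCM siKLF4 and 27.1 in TCM siNT, and 42.5 in SFM siKLF4-siFN, 30.2 in SFM siFN, 18.8 in SFM siKLF4 and 20.1 in SFM siNT. On SFM matrix both libraries with siFN were above both without it, and on TCM matrix both were below, with no overlap in either medium. The interaction was -1.20 ± 0.27 on the log2 scale (SE, limma adjusted p = 0.0480). The gene (ENSMUSG00000022193.7) lies on the minus strand at chr14:54614119-54618022 of GRCm38. A call so near the threshold was lost when any 1 of 7 libraries was left out: the fitted interaction then ran between -1.47 and -0.92, and Psmb5 was called without SFM siFN only (adjusted p = 0.0111).

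Psmb6 and Psmb3, neighbours of Psmb5 in the class of beta subunits, leaned the same way without being called. Psmb6, which carries the caspase-like site, had 29.7, 31.4, 38.3 and 34.3 FPKM in TCM siKLF4-siFN, TCM siFN, TCM siKLF4 and TCM siNT, and 47.6, 44.0, 29.7 and 36.7 FPKM in SFM siKLF4-siFN, SFM siFN, SFM siKLF4 and SFM siNT; its interaction was -0.70 ± 0.24 (limma adjusted p = 0.102). Psmb3, a beta subunit with no cutting site, had 7.35, 7.85, 9.07 and 9.73 FPKM in the TCM libraries and 11.9, 11.2, 8.25 and 9.46 FPKM in the SFM libraries in that order, with an interaction of -0.62 ± 0.19 (adjusted p = 0.0854). For both genes the siFN libraries lay above the others on SFM matrix and below them on TCM matrix. Not every beta gene shared this: Psmb7, with the trypsin-like site, had 1.54, 1.37, 1.42 and 1.41 FPKM in the TCM libraries and 1.48, 1.65, 1.36 and 1.74 FPKM in the SFM libraries, and an interaction of 0.01 ± 0.17 (adjusted p = 0.976).

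At the other end stood a base ATPase, an activator and a base chaperone, again not called. Psmc6, an ATPase of the ring that unfolds substrates (ENSMUSG00000021832.8, plus strand, chr14:45329788-45349705), had 5.11, 4.78, 3.62 and 3.30 FPKM in TCM siKLF4-siFN, TCM siFN, TCM siKLF4 and TCM siNT, and 1.61, 3.76, 5.17 and 5.40 FPKM in SFM siKLF4-siFN, SFM siFN, SFM siKLF4 and SFM siNT. Its interaction was the largest of the members in size, 1.25 ± 0.35 (limma adjusted p = 0.0697). Psme4, an activator that caps the core without ubiquitin, had 1.55, 1.53, 1.18 and 1.13 FPKM in the TCM libraries and 0.473, 1.27, 1.88 and 1.74 FPKM in the SFM libraries, with an interaction of 0.86 ± 0.26 (adjusted p = 0.0831). Psmd10, the chaperone also known as gankyrin, had 3.25, 3.25, 2.78 and 2.4 FPKM in the TCM libraries and 1.54, 2.12, 2.75 and 2.73 FPKM in the SFM libraries, with an interaction of 0.66 ± 0.20 (adjusted p = 0.0807). In all 3 genes the siFN libraries lay below the others on SFM matrix and above them on TCM matrix, with SFM siKLF4-siFN the lowest of the 8. Like Psmb5, Psmb6 and Psmb3, they were picked by the smallest p of this interaction, so such a separation follows in part from the choice. SFM siKLF4-siFN was also the extreme library for 58.1% of all 6917 genes.

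**Figure D2:**
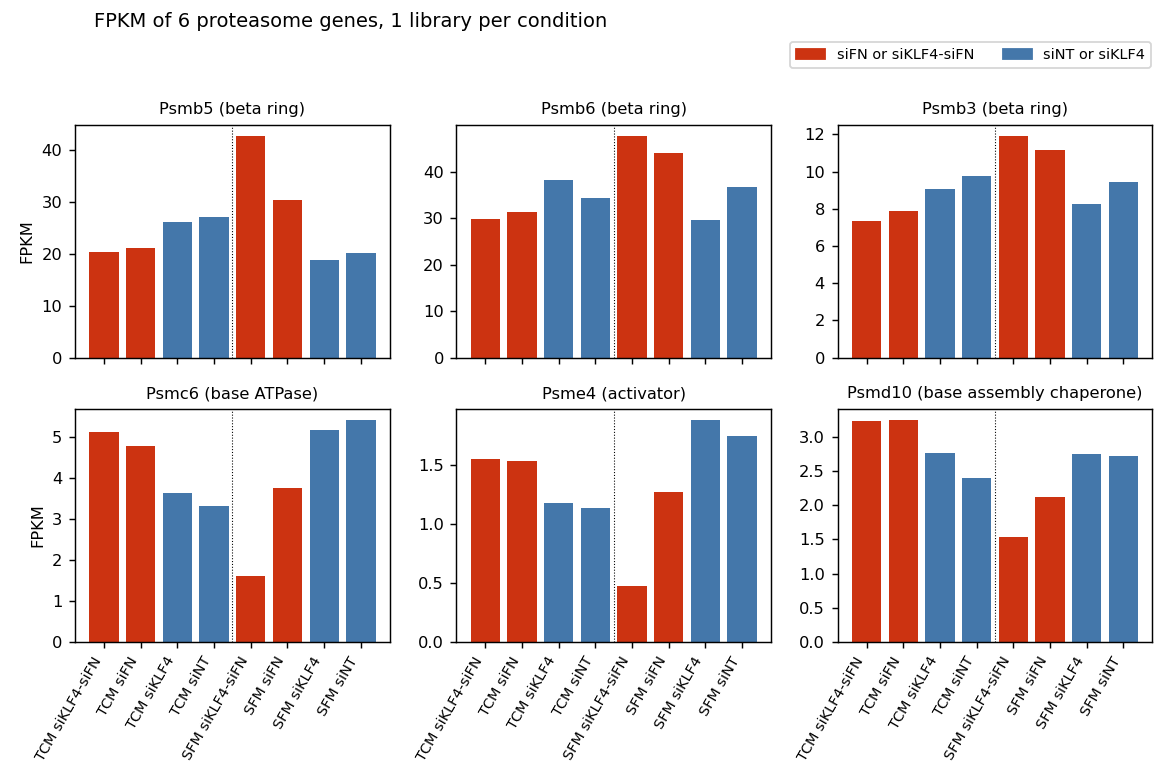
FPKM of the 6 members with the smallest p in either direction of the media by siFN interaction, 1 bar per library, with the axis from 0; red bars are libraries with siFN and blue bars those without. Psmb5, Psmb6 and Psmb3 peak in SFM siKLF4-siFN (42.5, 47.6 and 11.9 FPKM), where Psmc6, Psme4 and Psmd10 have their lowest value (1.61, 0.473 and 1.54 FPKM).

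Because these genes had interactions of opposite sign, their promoters were searched for the antioxidant response element bound by Nfe2l1, spelled TGACNNNGC and looked for on both strands in the window of 250 bases before to 50 bases after the start of each gene in RefSeq (GRCm38.p6). It was present in 5 of the 30 members with a promoter in that table, or 16.7%, against 12.4% of all 32851 promoters. The 5 were Psmb5, Psmb6, Psmc6, Psme4 and Psmd12, so that genes of both directions held it. A CCAAT box was present in 11 of 30, or 36.7%, against 37.4% of all promoters, and the sequence TGACGTCA in 0 of 30, against 1.79%. Psmb3 and Psmd10, described above beside these genes, had a promoter there without TGACNNNGC. Promoters of 4 of the 5 members with that match are shown 5′ to 3′ along the gene, with the match in capitals. Of these 4, Psmb5 alone was called in the interaction. They lie at chr14:54617946-54618245 (minus strand, Psmb5), chr11:70525107-70525406 (plus strand, Psmb6), chr14:45329574-45329873 (plus strand, Psmc6) and chr11:30771525-30771824 (plus strand, Psme4).
Psmb5: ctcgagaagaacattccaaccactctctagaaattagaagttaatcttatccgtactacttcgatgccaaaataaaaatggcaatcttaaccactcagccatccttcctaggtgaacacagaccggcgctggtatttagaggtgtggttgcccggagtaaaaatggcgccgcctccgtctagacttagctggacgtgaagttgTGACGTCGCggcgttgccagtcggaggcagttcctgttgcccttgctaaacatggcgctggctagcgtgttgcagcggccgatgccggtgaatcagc
Psmb6: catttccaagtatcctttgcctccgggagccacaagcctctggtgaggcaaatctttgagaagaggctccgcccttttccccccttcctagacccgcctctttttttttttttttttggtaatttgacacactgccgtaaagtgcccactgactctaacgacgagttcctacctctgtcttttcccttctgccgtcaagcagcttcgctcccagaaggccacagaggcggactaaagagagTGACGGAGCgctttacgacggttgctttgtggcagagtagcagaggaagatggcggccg
Psmc6: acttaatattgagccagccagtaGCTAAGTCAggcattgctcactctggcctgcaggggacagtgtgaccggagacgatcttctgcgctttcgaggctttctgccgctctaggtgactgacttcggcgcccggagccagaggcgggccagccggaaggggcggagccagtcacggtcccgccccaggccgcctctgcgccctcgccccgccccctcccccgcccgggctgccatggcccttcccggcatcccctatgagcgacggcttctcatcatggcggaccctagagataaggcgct
Psme4: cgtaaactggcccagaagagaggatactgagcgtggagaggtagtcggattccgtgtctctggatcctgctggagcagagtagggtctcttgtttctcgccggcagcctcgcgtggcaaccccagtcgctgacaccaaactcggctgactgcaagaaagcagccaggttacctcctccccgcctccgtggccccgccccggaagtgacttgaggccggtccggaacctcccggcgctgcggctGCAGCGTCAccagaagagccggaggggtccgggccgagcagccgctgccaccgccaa
Counted from the start of the gene, the leftmost base of the match lay at -47 in Psmb5, -9 in Psmb6, -227 in Psmc6 and -7 in Psme4. In Psmb5 and Psmb6 it reads along the gene, and in Psmc6 and Psme4 it is on the opposite strand. A match of these letters is a description and says nothing of binding in these cells.

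**Figure D3:**
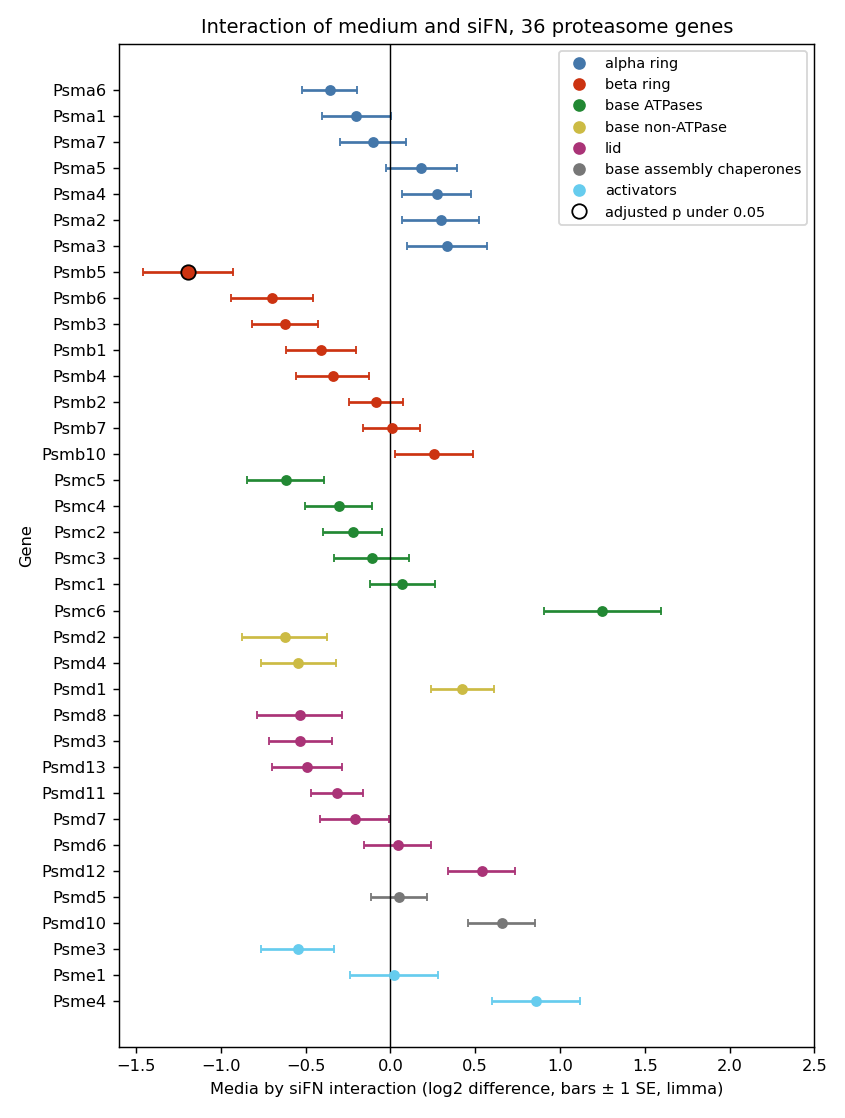
Media by siFN interaction of the 36 proteasome genes (log2 difference, points with bars of 1 SE from limma), grouped by place in the particle. Psmb5 is the member past an adjusted p of 0.05 (-1.20), and each class but the base chaperones has points on both sides of 0.

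By class, the interaction of the core particle had a median of -0.10, with 9 of 15 genes below 0, and that of the regulators a median of -0.21, with 12 of 21 below 0, against 54.4% of all genes. Inside the core particle the rings lay on either side of that share: 6 of 8 beta genes were below 0 (median -0.38), against 3 of 7 alpha genes (median 0.18). The rings were not matched for GC content, which ran along with the interaction (below), and its part in this was not tested. Psma3 had the highest value of the alpha ring, 0.33 ± 0.24 (limma adjusted p = 0.347), and the lowest was Psma6 with -0.36 ± 0.16 (adjusted p = 0.168). The base ATPases held the member with the highest value of all, Psmc6, and 4 genes below 0, of which Psmc5 was the lowest with -0.62 ± 0.23 (adjusted p = 0.116). In the lid 5 of 7 genes were below 0 (median -0.32), but Psmd12 was at 0.54 ± 0.20 (adjusted p = 0.116). These are counts over genes that share libraries, so no test was made between classes.

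Psmc5, Psmd8 and Psme3, which had the highest levels of the ATPases, the lid and the activators, had interactions below 0 and were not called; Psmd10, the highest of the chaperones, was at 0.66 as above. Psmc5 had 16.8, 17.1, 18.4 and 18.2 FPKM in TCM siKLF4-siFN, TCM siFN, TCM siKLF4 and TCM siNT, and 24.0, 17.9, 15.2 and 13.4 FPKM in the SFM libraries in that order. Psmd8 had 78.5, 79.2, 92.1 and 105 FPKM in the TCM libraries and 110, 88.7, 79.1 and 90.8 FPKM in the SFM libraries (interaction -0.54 ± 0.25, limma adjusted p = 0.184). Psme3, a nuclear activator, had 16.3, 18.1, 17.6 and 20.6 FPKM in the TCM libraries and 23.2, 21, 16.3 and 16.5 FPKM in the SFM libraries (-0.55 ± 0.21, adjusted p = 0.132). In Psmc5 and Psme3 the siFN libraries on SFM matrix were above both others there, whereas in Psmd8 SFM siFN lay below SFM siNT.

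Psmb10 and Psme1, members induced by interferon in other cells, which serve the immune form of the particle, were not called in the interaction. Psmb10 is low (mean 1.14 FPKM), and folds on the log2(FPKM + 1) scale understate changes of low genes. Psmb10, the inducible counterpart of Psmb7, had 1.38, 0.966, 1.31 and 0.972 FPKM in the TCM libraries and 1.12, 0.766, 1.06 and 1.52 FPKM in the SFM libraries, with an interaction of 0.26 ± 0.23 (limma adjusted p = 0.449). Psme1, a subunit of the interferon-inducible activator, had 6.61, 6.45, 8.52 and 6.10 FPKM in the TCM libraries and 7.08, 5.38, 6.42 and 7.52 FPKM in the SFM libraries, with an interaction of 0.02 ± 0.26 (adjusted p = 0.961). Its partner Psme2 had a mean of 0.84 FPKM and was not tested. Of the other interferon-induced genes listed, Ifit2 and B2m were called (1.65 ± 0.36, adjusted p = 0.0474, and 1.35 ± 0.31, adjusted p = 0.0494), and all 9 that were tested, these members included, had values above 0. With siFN, Irf1, B2m and Ifit2 were higher on TCM than on SFM matrix (limma adjusted p = 0.0403, 0.0431 and 0.0356).

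Psma3 and Psmd5 were the lowest of the alpha and Psmd genes described. Psma3 had 1.76, 1.51, 1.5 and 1.66 FPKM in the TCM libraries and 0.979, 1.87, 1.85 and 2.05 FPKM in the SFM libraries, so that SFM siKLF4-siFN alone stood below the rest. Psmd5 had 1.63, 1.53, 1.80 and 1.64 FPKM in the TCM libraries and 1.49, 1.82, 1.87 and 1.92 FPKM in the SFM libraries. Members under the mean of 1 FPKM were Psmd14, the lid enzyme that removes ubiquitin, at a mean of 0.95 FPKM, Psme2 at 0.84 FPKM, Psmd9 at 0.41 FPKM, and Psma8 and Psmb11, which are known from testis and thymus and were listed at 0 in every library. Low members rest on few reads: by the approximate depths, Psmb2 had about 13.2 reads in its thinnest library (a counting error of 27.5%), Psmb10 about 16.2, and Psme4 about 39.9.

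Within a medium, the siFN libraries were set against those without siFN. On SFM matrix 479 genes or 6.92% were called in limma (3.17% higher with siFN), and 1 member, Psmb5, which was 0.85 ± 0.19 higher on the log2 scale with siFN (adjusted p = 0.0469). With 1 library left out it ran from 0.58 to 1.12 and was called in 1 of 8 fits, the one without SFM siFN. Of the 36 members 23 were above 0, with a median of 0.12, against a median of 0.01 over all genes; 7 of 8 beta genes were above 0 and 4 of 7 alpha genes below. Next to Psmb5 came Psmc5 with 0.51 ± 0.16 (adjusted p = 0.0897) upward, and Psmc6 with -0.83 ± 0.25 (adjusted p = 0.0769) and Psme4 with -0.62 ± 0.18 (adjusted p = 0.0798) downward. On TCM matrix limma called 0 of the 6917 genes (391 at an unadjusted p under 0.05), and the members lay between -0.35 for Psmb5 and 0.42 for Psmc6.

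With siFN, the media also differed at more genes than in any other comparison. TCM minus SFM among the siFN libraries called 1172 genes or 16.9% in limma (8.41% higher and 8.53% lower), and 3 members or 8.33%. Psmd10 was higher on TCM matrix by 0.60 ± 0.14 (adjusted p = 0.0393), while Psmb5 fell by 0.77 (SE 0.19, adjusted p = 0.0420) and Psmb3 fell by 0.54 (SE 0.14, adjusted p = 0.0446). With 1 library left out, Psmd10 was called in 3 of 8 fits (0.42 to 0.77; without SFM siFN, TCM siNT or TCM siKLF4), and Psmb5 (-1.04 to -0.49) and Psmb3 (-0.64 to -0.44) in 1 of 8, the fit without SFM siFN. Of the beta genes 7 of 8 were below 0. Without siFN limma called 0 genes between the media (627 at an unadjusted p under 0.05), and Psmb5 then had the opposite sign, 0.43 ± 0.19 (adjusted p = 0.543).

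The other comparisons called no gene in limma. The medium effect over all 8 libraries had 464 genes at an unadjusted p under 0.05 and 1 member among them, Psmc1, an ATPase, at 0.31 ± 0.11 (adjusted p = 0.644). The siKLF4 effect had 84 genes and 0 members at that level, and the siFN effect also 84 genes and 0 members. For the media by siKLF4 interaction the counts were 78 genes and 0 members, and for the siKLF4 by siFN interaction 40 genes and 0 members. Set side by side as single libraries, with no test, TCM siKLF4-siFN minus SFM siKLF4-siFN put 2 members past 1 on the log2 scale, Psmc6 (1.23) and Psmb5 (-1.03), against 10.2% of all genes. SFM siKLF4-siFN minus SFM siKLF4 put the same 2 genes past it, Psmc6 at -1.24 and Psmb5 at 1.14, against 9.87% of all genes. The other 4 pairs put 0 members past it, against 5.05% of all genes for TCM siFN minus SFM siFN, 1.32% for TCM siKLF4 minus SFM siKLF4, 2.43% for TCM siNT minus SFM siNT and 3.66% for SFM siFN minus SFM siNT.

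The classes were also compared as means, which average members of both directions. The mean of the core genes, each centred on its own mean over the libraries, minus that of the regulators was -0.069 in TCM siKLF4-siFN, -0.091 in TCM siFN, -0.036 in TCM siKLF4 and -0.020 in TCM siNT. On SFM matrix it was 0.074 in SFM siKLF4-siFN, 0.105 in SFM siFN, -0.065 in SFM siKLF4 and 0.102 in SFM siNT. The TCM libraries were thus all below 0 and 3 of 4 SFM libraries above, and no difference was larger than 0.105. The value in SFM siKLF4-siFN was 0.018 over members with a mean of at least 5 FPKM and 0.020 without the chaperones and activators. The rings lay apart in some libraries and together in others: in SFM siKLF4-siFN the beta genes averaged 0.258 above their mean and the alpha genes 0.148 below theirs (-0.148), and in TCM siKLF4-siFN the beta genes averaged -0.122 and the alpha genes 0.049. In TCM siNT, by contrast, the beta genes averaged -0.009 and the alpha genes 0.004, and in SFM siNT 0.037 and 0.046.

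Base composition and level ran along with the interaction. Over the 36 members the interaction and the GC content of the longest annotated transcript had a Spearman correlation of -0.53, and over 5343 protein-coding genes it was -0.49, both given as descriptions because all genes come from the same libraries. Of the 15 members with a GC content of 50% or more, 13 had an interaction below 0 (median -0.49), against 72.2% of coding genes in that range (median -0.24). Of the 10 members under 45% GC, 7 were above 0 and 3 below (median 0.28), and 18.5% of coding genes there were below 0 (median 0.45). From 45% to 50% GC, 6 of 11 members were above 0 and 5 below, and 46.1% of coding genes were below. Most members of high and of low GC content thus lay on the same side of 0 as most coding genes of like composition. The correlation with mean FPKM was -0.66 over the members and -0.16 over all genes. Within single libraries, the centred value of coding genes correlated with GC content at 0.58 in SFM siKLF4-siFN and at -0.48 in SFM siKLF4, the ends of the range.

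When the trend with GC content was taken out of each library, an alternative added after the data had been seen, Psmc6 and Psmd10 lost most of their difference. Psmc6, at 37.0% GC, then had an interaction of 0.23 (limma adjusted p = 0.330) in place of 1.25, and Psmd10, at 42.3%, had 0.17 (adjusted p = 0.409) in place of 0.66. Psme4, at 43.9%, had 0.50 (adjusted p = 0.116). Psmb5, at 56.6% GC, kept -0.91 (adjusted p = 0.0485), and Psmb3 and Psmb6 kept -0.59 (adjusted p = 0.0706) and -0.58 (adjusted p = 0.102). The lid gene Psmd11, at 39.9% GC and with -0.32 before, was then called at -1.03 (adjusted p = 0.0446). The GC content is that of the longest annotated transcript, which need not be the form these cells express. Of the 36 members 27 kept their sign. What part base composition had in these differences was not tested further.

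**Figure D4:**
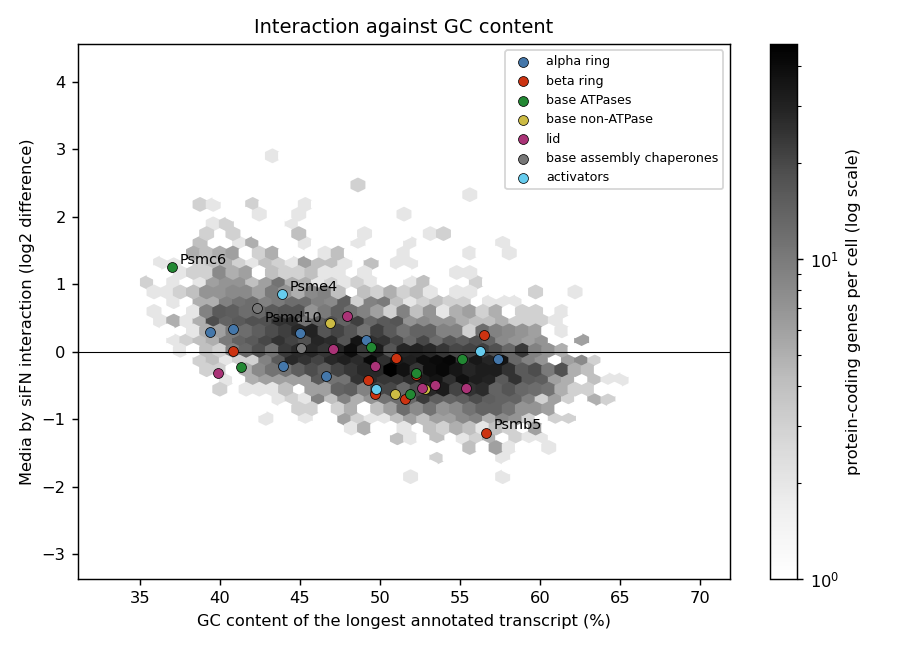
Media by siFN interaction (log2 difference, vertical) against GC content of the longest transcript (percent, horizontal) for protein-coding genes (grey cells, darker with more genes) and the 36 members (points coloured by class). The members follow the falling trend of the other genes, with Psmc6 at 37.0% GC and 1.25, and Psmb5 at 56.6% GC and -1.20.

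Reads of some members could be shared with other rows of the table. Of the 36 members, 18 shared no run of 50 bases with another gene of GENCODE M21. In 10, another gene held at least 5% of their runs. For Psmc3, Psmd1 and Psmd13 that gene (Slc39a13, Gm21972 and Sirt3) overlaps the member's own place in the genome and is not a copy. Psma3 shared 22.0% of its runs with the processed pseudogene Gm13835, which was listed at a mean of 173 FPKM against 1.65 FPKM for Psma3. Psma5 shared 37.2% with Gm8394 (47.1 FPKM) and 31.1% with Gm12989 (21.1 FPKM), against a mean of 2.63 FPKM for Psma5. Psme2, under the mean of 1 FPKM, shared 59.3% with Psme2b, listed at 15.0 FPKM. Psma4 shared 25.6% with the processed pseudogene Gm6542 (8.47 FPKM), against a mean of 9.67 FPKM for Psma4. Levels of Psma3, Psma4, Psma5 and Psme2 are uncertain because of such shared sequence. Psmb3 shared 10.1% of its runs with AC114990.1, a pseudogene with no row used here, so its level carries this limit too.

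For Psmb5, 49.4% of its runs were shared with Gm3375, a pseudogene on chromosome 7 with no row used here, and its named pseudogene Psmb5-ps was listed at 0.252, 0.129, 0.175 and 0.180 FPKM in TCM siKLF4-siFN, TCM siFN, TCM siKLF4 and TCM siNT, and at 1.06, 0.298, 0.430 and 0.216 FPKM in the SFM libraries in that order. These values are far below those of Psmb5 itself, with SFM siKLF4-siFN again the highest. With so much shared sequence the level of Psmb5, the member called, is uncertain too. Psmc6, Psmd10 and Psme4 shared at most 0.0458% of their runs with any other gene. In Psmc1 and Psmd2, copies held 13.7% (Gm9575, 7.35 FPKM) and 25.2% (Gm5422, 8.86 FPKM), below the members' own means of 12.4 and 27.8 FPKM. How the authors counted reads that fit several places is not given in the sources used here.

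**Figure D5:**
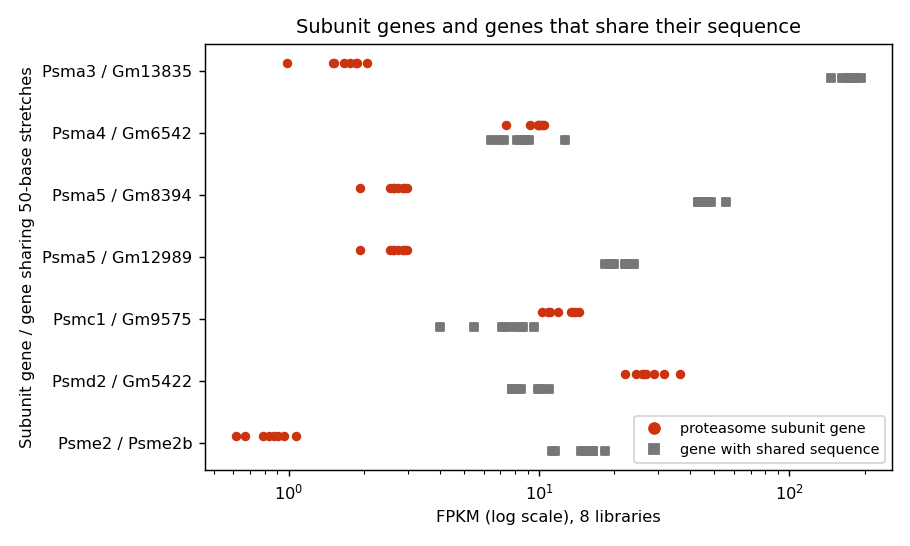
FPKM on a log axis of 6 proteasome genes (red circles, 8 libraries each) and of 7 genes that share runs of 50 bases with them (grey squares). Gm13835 lies about 105-fold above Psma3 and Psme2b 17.9-fold above Psme2 by their means, while Psmc1 and Psmd2 lie above their copies.

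The genes that assemble, regulate and feed the proteasome were read from lists beside the members. Of 5 assembly factors tested, Psmg3, which pairs with Psmg4 in building the alpha ring, was called in the interaction at -0.82 ± 0.17 (limma adjusted p = 0.0444), and with siFN both Psmg3 (-0.70 ± 0.12, adjusted p = 0.0254) and Psmg2 (-0.64 ± 0.14, adjusted p = 0.0352) were lower on TCM than on SFM matrix. Psmg3 had 3.52, 3.89, 4.73 and 5.29 FPKM in TCM siKLF4-siFN, TCM siFN, TCM siKLF4 and TCM siNT, and 6.60, 6.63, 4.28 and 4.78 FPKM in the SFM libraries. As in Psmb3, both siFN libraries lay above the others on SFM matrix and below them on TCM matrix. Pomp, the chaperone of the beta rings, was at 0.15 ± 0.19 (adjusted p = 0.576).

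Of 9 tested genes that regulate proteasome transcription, Foxm1, a cell cycle factor, was called in the interaction (1.90 ± 0.36, limma adjusted p = 0.0429). Nfe2l1 had 35.0, 35.2, 37.9 and 39.3 FPKM in the TCM libraries and 42.3, 37.7, 30.6 and 26.7 FPKM in the SFM libraries, with an interaction of -0.60 ± 0.21 (adjusted p = 0.106), and its relative Nfe2l2 was at 0.69 ± 0.24 (adjusted p = 0.106). Neither was called. With siFN, Nfyb, a subunit of the factor that binds CCAAT boxes, was higher on TCM than on SFM matrix (0.51 ± 0.14, adjusted p = 0.0491).

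Downstream of ubiquitin, 0 of 11 receptors, shuttles and deubiquitinases were called in the interaction, with Zfand5 (0.74 ± 0.22, limma adjusted p = 0.0805) and Ubqln4 (-0.66 ± 0.20, adjusted p = 0.0823) nearest; with siFN, Ubqln4 was lower on TCM matrix (-0.55 ± 0.14, adjusted p = 0.0469). All 5 tested ubiquitin and activation genes had interactions below 0 and none was called. The 10 tested genes around the p97 segregase, which pulls ubiquitinated proteins out of membranes and complexes, were also all below 0. Derl1, a channel component of the endoplasmic reticulum, was called (-1.15 ± 0.24, limma adjusted p = 0.0444). These are counts over genes that share libraries, and the median over all genes was also below 0 (above). Among 6 genes known to be induced when the proteasome is inhibited, Hmox1 was called (-1.80 ± 0.26, adjusted p = 0.0375); it had 92.7, 93.8, 111 and 165 FPKM in the TCM libraries and 245, 253, 93.4 and 113 FPKM in the SFM libraries. Sqstm1 was at -0.95 ± 0.26 (limma adjusted p = 0.0676). The rest of that list was not called either: Hsph1 (-0.56), Bag3 (-0.20) and Hspa1b (-0.06) were below 0, and Dnajb1 (0.48) was above. Of 11 Nfe2l2 targets none was called, Srxn1 being the nearest (-1.29 ± 0.34, limma adjusted p = 0.0661).

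Genes of mitosis moved with the same comparison and far more. All 10 that were tested were called in the interaction, all above 0, with a median of 2.60. Their centred mean was 0.69 in TCM siKLF4-siFN, 0.68 in TCM siFN, 0.63 in TCM siKLF4 and -0.64 in TCM siNT, and -1.39 in SFM siKLF4-siFN, -1.36 in SFM siFN, 0.68 in SFM siKLF4 and 0.71 in SFM siNT. The part of this in the differences of the proteasome genes was not tested.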

How the data were processed

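RNA of B16-F10 cells was sequenced in 8 libraries, 1 per condition. The authors deposited FPKM values per gene symbol; the submitters' processing notes name STAR 2.4.1d, Partek and build mm10. Strand setting, annotation and counting rule are not stated there, and 0 columns were left unused. Values were analysed as log2(FPKM + 1) with limma-trend (limma 3.58.1, R 4.3.3) on 6917 genes with a mean of at least 1 FPKM, with Benjamini-Hochberg adjustment at 0.05. Main effects came from an additive model (4 residual degrees of freedom) and each interaction from a model with that term added (3). Folds on this scale understate changes of low genes. Named genes were those past the threshold, the 3 of smallest p on either side of the media by siFN interaction, the highest and lowest of each class, and the catalytic, inducible and activator genes; from other lists, up to 4 with the smallest p and those called. The members and lists were chosen with earlier results of these data known. GC content and shared runs of 50 bases came from GENCODE M21 (GRCm38), which matched 90.4% of rows. Fits were tested on simulated data. Alternatives were another pseudocount, other filters, centring, coding genes only, leaving out each library, no siKLF4 term and GC removal. P-values measure the spread among conditions, since no condition was repeated.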

Additional observations from a re-analysis of the deposited data

Results flagged for a closer look

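The siFN difference of Psmb5 had opposite directions in the media, and the interaction term tested this directly. With siFN the gene was lower on TCM matrix (20.3 and 21.1 FPKM with siFN, against 26.0 and 27.1 FPKM without) and higher on SFM matrix (42.5 and 30.2 FPKM with siFN, against 18.8 and 20.1 FPKM without). The interaction was -1.20 on the log2 scale (limma adjusted p = 0.0480). Over 16 settings its adjusted p ran from 0.0111 to 0.180, and it was below 0.05 in 7 of them. The cause of the difference was not tested.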

How the results depend on the processing

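No paired analysis was possible because each condition has 1 library and the labels give no replicate numbers. With a pseudocount of 0.1 the media by siFN interaction called 0 genes (2282 at an unadjusted p under 0.05) and 0 members, and siFN on SFM matrix 281 genes and 0 members. With no filter the counts of genes were 14, 10, 13 (siFN on TCM matrix), 14 (media with siFN) and 8 (media without siFN), and 0 members in each. At a mean of at least 5 FPKM they were 251 genes for the interaction, 259 for siFN on SFM matrix and 626 for the media with siFN. With coding genes only (5343 genes, fitted anew), the interaction called 1006 genes and 4 members (Psmb5, Psmc6, Psmd10, Psme4). In that setting siFN on SFM matrix called 968 genes and 3 members, and the media with siFN 1347 genes and 5 members. The media without siFN called 1 gene. Why these counts differ from the main fit was not tested. Without the siKLF4 term the counts were 863 genes and 838 genes. With the GC trend removed (6563 genes), the interaction called 453 genes and 2 members. For siFN on SFM matrix the counts were then 645 genes and 3 members (Psmb5, Psmc2, Psmd11).

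Leaving out 1 library at a time gave 0 to 2065 genes and 0 to 13 members for the interaction, 0 to 1835 and 0 to 9 for siFN on SFM matrix, 0 to 2243 and 0 to 8 for the media with siFN, and 0 to 1 genes for the siFN effect. The highest of the interaction counts came without SFM siFN; without SFM siKLF4-siFN 0 genes were called in each of these comparisons. Signs turned for Psmb10 without SFM siNT (interaction -0.017, siFN on SFM matrix 0.037), without SFM siKLF4-siFN for Psmd8 (siFN on SFM matrix -0.00028), Psma3 (media with siFN -0.12) and Psmb4 (0.015), and without TCM siKLF4-siFN for Psma3 (-0.047). Over all left-out libraries Psmb10 ran from -0.017 to 0.53 in the interaction and from -0.51 to 0.037 for siFN on SFM matrix, Psmd8 from -0.00028 to 0.44 there, and with siFN Psma3 ran from -0.12 to 0.40 and Psmb4 from -0.23 to 0.015 between the media. With the GC trend removed they turned for Psma3 (interaction -0.29, siFN on SFM matrix 0.12, media with siFN -0.28) and Psma7 (0.19 and -0.082); the cause was not tested. None of the turned values was called.

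Centred class means moved as well, by construction where the filter changes the members. The regulator mean in SFM siKLF4-siFN was -0.064 with a pseudocount of 0.1. At 5 FPKM the core mean was -0.13 in TCM siKLF4-siFN, 0.21 in SFM siKLF4-siFN and -0.036 in SFM siNT, and the regulator mean was -0.018 in TCM siKLF4-siFN, -0.026 in TCM siFN, 0.19 in SFM siKLF4-siFN, -0.13 in SFM siKLF4 and -0.15 in SFM siNT.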

Other observations

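Psmc3ip carries a symbol like that of a subunit gene but encodes a factor of homologous recombination in meiosis. It had 2.65, 2.55, 2.41 and 1.14 FPKM in TCM siKLF4-siFN, TCM siFN, TCM siKLF4 and TCM siNT, and 0.701, 0.843, 2.57 and 2.55 FPKM in SFM siKLF4-siFN, SFM siFN, SFM siKLF4 and SFM siNT. The libraries low in Psmc3ip, including TCM siNT, were those low in the mitosis genes. Psmc3ip was lowest in SFM siKLF4-siFN, whereas Psmc3, an ATPase of the base, was lowest in SFM siFN. Psmc3 had 14.3, 14.6, 16.0 and 13.6 FPKM in the TCM libraries and 14.8, 11.3, 12.3 and 12.2 FPKM in the SFM libraries. Psmc3ip was singled out after its values were seen.

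The row Psmb6-ps2, a pseudogene name outside the rule, had 5.00, 3.21, 4.05 and 5.46 FPKM in the TCM libraries and 7.63, 7.21, 4.87 and 5.94 FPKM in the SFM libraries, so that SFM siKLF4-siFN and SFM siFN were highest, as in Psmb6. How much of this row is read from Psmb6 was not tested.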
